A study of Rattus norvegicus with 11 samples.

Results

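Pcdha4, the gene symbol for protocadherin alpha 4, was examined as a single row of the gene counts, identifier ENSRNOG00000047174, which is 1 of 32883 gene identifiers. The counts came from poly(A)-enriched RNA of the corpora quadrigemina, the paired inferior and superior colliculi of the midbrain, from 4-month-old male rats, each rat being its own library. The samples were 3 rats of the KM strain, inbred from Wistar stock and prone to audiogenic epilepsy, 4 rats of the “0” strain, selected from KM and Wistar hybrids against such seizures and labelled as less prone to them, and 4 outbred Wistar rats (W), labelled as wild type. All rats heard the test sound 4 days before the tissue was taken, and the “0” rats had been tested more often before. The row was chosen because its level differed between the strains, so all its levels and fold changes below are a description and carry no test.

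Protocadherins are cell adhesion proteins of the cadherin family that sit in the neuronal membrane. The clustered protocadherins lie in 3 neighbouring gene clusters named alpha, beta and gamma. In the alpha and gamma clusters each variable first exon has its own promoter and is spliced to constant exons that the whole cluster shares, and single neurons use different sets of these promoters, which gives neurons a surface identity for self-avoidance and wiring. The promoters are opened by CTCF and cohesin, and the shared constant exons of the alpha cluster code for a cytoplasmic tail that binds kinases and the actin-regulating WAVE complex.

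The symbol needs care in the rat. The RefSeq gene table for the assembly GRCr8 gives Pcdha4 as the name of the entire alpha cluster on chromosome 18, with 22 transcripts and with 14 other Pcdha names as synonyms. In the table of symbols used for these counts, 2 identifiers carry the symbol Pcdha4, ENSRNOG00000047174 and ENSRNOG00000050378. Which variable exons each of the 2 covers was not determined here, since the counts were made on the assembly Rnor_6.0 and its annotation was not analysed here. The second identifier is called the second Pcdha4 row below. Reads that matched several genes were set aside by the authors and numbered from 231549 to 327367 per rat (1.44% to 2.36% of the reads in the totals). Reads from exons that several alpha transcripts share could be among them, which was not tested.

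The promoter that RefSeq lists for Pcdha4 is shown because promoter choice decides which alpha transcript a neuron makes. It is the plus strand of chr18:28876919-28877168 in GRCr8, the 250 bases before the start of 1 transcript of the gene, and it may not be the promoter of the exon that was counted. The capitals mark the letters CGCT, the core of the element that many clustered protocadherin promoters share. For comparison, 40 bases of the promoter of Pcdhb4, a beta cluster gene described below, are shown from the plus strand of chr18:29292206-29292245, with the word GGTGGCGCTG in capitals. Pcdhb4 was chosen because its promoter holds this word, which the promoters of Pcdhga4 and Pcdhga10, also described below, do not.
Pcdha4: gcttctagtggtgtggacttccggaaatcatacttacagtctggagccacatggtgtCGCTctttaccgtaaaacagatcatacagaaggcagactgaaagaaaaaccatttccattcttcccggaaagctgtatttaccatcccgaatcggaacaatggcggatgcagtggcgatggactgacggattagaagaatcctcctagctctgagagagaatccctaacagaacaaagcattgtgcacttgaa
Pcdhb4: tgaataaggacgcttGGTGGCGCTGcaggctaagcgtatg

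On either strand, CGCT occurred in 27 of the 35 promoters listed for clustered protocadherin genes (77.1%) and in 55.1% of all 33469 promoters of the same length, so this short core is common everywhere. The longer GGTGGCGCTG, which contains CGCT, was the word of 10 letters found in the largest number of the 35 promoters. It was picked for that reason, so its higher share among the 35 promoters carries no weight. It occurred in 14 of them (40.0%) and in 0.188% of all promoters. The window of Pcdha4 held CGCT at 1 place and did not hold the longer word.

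Pcdha4 was low in the colliculi of KM and “0” rats and several times higher in every W rat. The KM rats had 6, 6 and 10 counts, which is 0.493, 0.510 and 0.590 CPM (the count scaled to library size). The “0” rats had 11, 9, 3 and 14 counts, or 0.869, 0.854, 0.330 and 0.910 CPM. The W rats had 44, 39, 37 and 40 counts, or 3.50, 2.99, 3.19 and 3.76 CPM. The lowest W rat was 3.28 times the highest of the 7 other rats, while the KM and “0” values overlapped, since “0” 3 lay below every KM rat and the remaining “0” rats lay above them.

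**Figure D1:**
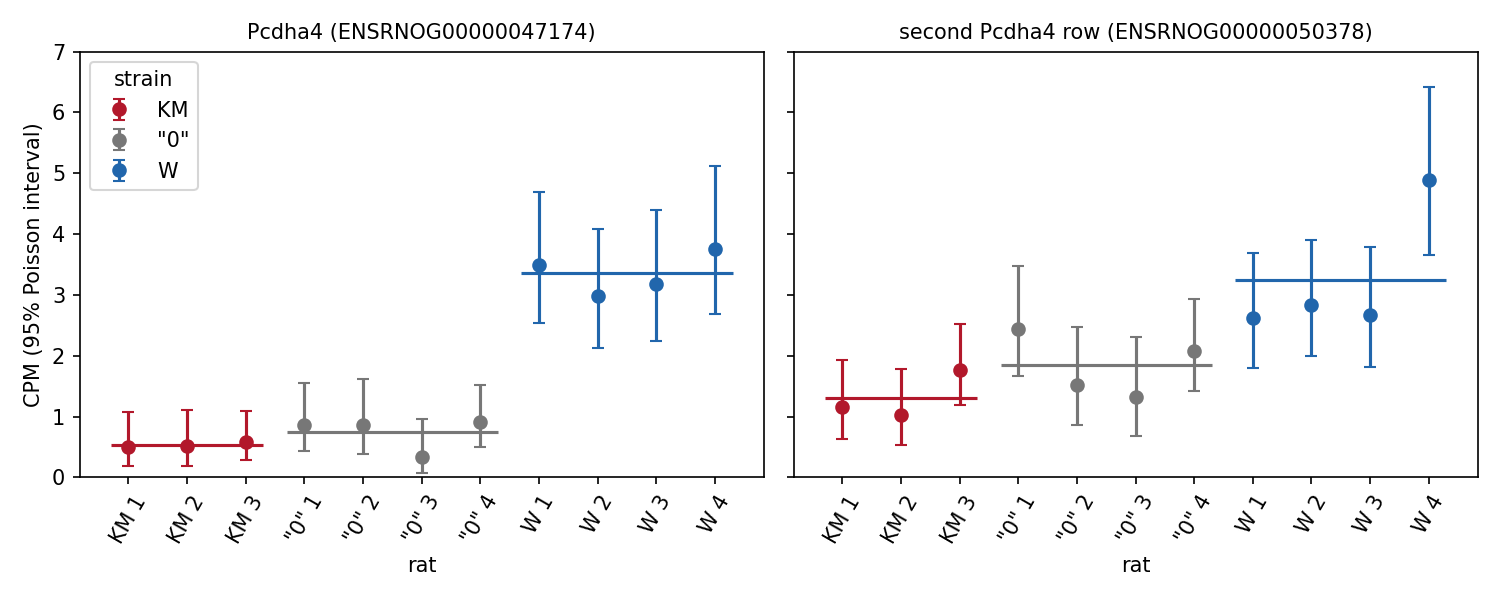
Level of Pcdha4 (left) and of the second Pcdha4 row (right) in CPM in each of the 11 rats, with 95% Poisson intervals of the counts as bars and the strain mean as a line. On the left the 4 W rats lie between 2.99 and 3.76 CPM and the other 7 rats between 0.330 and 0.910 CPM, and on the right the strains lie closer together, with W 4 at 4.89 CPM.

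The strain means ordered W, “0”, KM. They were 3.36 ± 0.341 CPM (SD, n = 4) in W, 0.741 ± 0.275 CPM (SD, n = 4) in “0” and 0.531 ± 0.0521 CPM (SD, n = 3) in KM rats. The step from W to “0” was larger than the spread within either strain, and the step from “0” to KM was within the spread of the “0” rats. In W rats the coefficient of variation was 10.2%, below the 15.8% that counting alone gives at their mean count, and in KM rats it was 9.82% against 36.9%. In “0” rats it was 37.1% against 32.9%, but the chi-square of their counts was 0.967 per degree of freedom, no more than counting gives. Counting error therefore covered the spread in every strain, and a smaller biological spread could not be resolved at this depth.

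Over the pooled counts of each strain, W rats (160 counts) were 6.21-fold above KM rats (22 counts), with a 95% counting interval from 3.96 to 10.2. W rats were 4.30-fold above “0” rats (37 counts), with an interval from 2.99 to 6.33. The “0” rats were 1.44-fold above KM rats with an interval from 0.829 to 2.57. These intervals cover counting error only, and the depth sets them, at 10545964 to 15140180 assigned reads per rat. A floor of 3 counts corresponded to 0.177 to 0.330 CPM depending on the rat, and “0” 3 was at that floor.

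In the fit of KM vs W by edgeR the log2FC (log2 of the first strain over the second) of Pcdha4 was −2.63 with an SE (standard error) of 0.27, and 11 of the 13721 genes tested had a lower value. The background of this comparison was 1497 DEGs (differentially expressed genes, at an unadjusted p under 0.05), or 10.9% of the genes tested, which is printed for scale only because the gene was chosen in this contrast. Leaving out each rat in turn kept the value between −2.71 and −2.58. In “0” vs W the log2FC was −2.14 (SE 0.31), where 30 of 13630 genes were lower and 912 or 6.69% were DEGs. In KM vs “0” it was −0.49 (SE 0.44), with 500 DEGs or 3.65% of 13686 genes. The row passed the filter of a mean of at least 1 CPM only through the W rats. It was therefore not among the genes tested in KM vs “0”, and its value there comes from a fit with the row added. The 3 comparisons share rats, so their values for this gene are not independent of each other.

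The library “0” 3 had 29.2% of its assigned reads on its 10 most abundant genes and the largest share of ambiguous reads, 2.36%. KM 3 and “0” 4 lay apart on the other side, with 7.94% and 7.95% on such genes, against 13.9% to 19.0% in the remaining rats. Without “0” 3 the log2FC of Pcdha4 was −1.92 in “0” vs W and −0.72 in KM vs “0”. In the study's own measure of return towards the W level, 100 times the difference of the KM and “0” means over the difference of the KM and W means on the log2 CPM scale, Pcdha4 had a coefficient of 13.6. The coefficient was 25.1 without “0” 3 and 9.11 to 15.8 when any other rat was left out. The KM mean stands in both its numerator and its denominator.

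The second Pcdha4 row was more evenly spread over the strains. The KM rats had 14, 12 and 30 counts, or 1.15, 1.02 and 1.77 CPM. The “0” rats had 31, 16, 12 and 32 counts, or 2.45, 1.52, 1.32 and 2.08 CPM. The W rats had 33, 37, 31 and 52 counts, or 2.62, 2.83, 2.67 and 4.89 CPM. Every W rat was above every KM and “0” rat here too, by a narrow margin over “0” 1, and the KM and “0” values overlapped. Of all genes with a mean of at least 1 CPM, 119 of 13694 (0.869%) had every W rat above every KM and “0” rat. Taken by pair, a lack of overlap with the first strain lower held for 6.27% of the genes tested in KM vs W and 2.03% in “0” vs W. It held for 2.21% in KM vs “0”, where this row overlapped.

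Its log2FC was −1.28 (SE 0.35, unadjusted p = 0.00542, BH-adjusted p = 0.32, quasi-likelihood F-test in edgeR) in KM vs W. In “0” vs W it was −0.80 (SE 0.31, unadjusted p = 0.0263, adjusted p = 0.64), and in KM vs “0” −0.48 (SE 0.36, unadjusted p = 0.211, adjusted p = 0.99). An exact permutation test on its CPM (two-sided) gave p = 0.0571 for KM vs W, the smallest that 3 rats against 4 allow, p = 0.0286 for “0” vs W, the smallest for 4 against 4, and p = 0.229 for KM vs “0”. After adjustment over these 3 exact tests the values were 0.0856, 0.0856 and 0.229. The row has a symbol because the study lists it among DEGs, so its call is not independent evidence. The unadjusted p in “0” vs W rose above 0.05, to at most 0.0916, without “0” 2, “0” 3 or W 4.

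The share of ENSRNOG00000047174 in the counts of both rows compares the 2 within a rat and does not depend on library scaling. It was 30.0%, 33.3% and 25.0% in the KM rats and 26.2%, 36.0%, 20.0% and 30.4% in the “0” rats. In the W rats it was 57.1%, 51.3%, 54.4% and 43.5%. All W rats lay above all others, with strain means of 29.4% ± 4.19 (SD, n = 3) in KM, 28.2% ± 6.76 (SD, n = 4) in “0” and 51.6% ± 5.91 (SD, n = 4) in W. The Wilson intervals of single rats were wide, from 33.8% to 53.7% in W 4 and from 20.2% to 55.5% in “0” 2. Since the first row was chosen for its level, this too is a description.

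**Figure D2:**
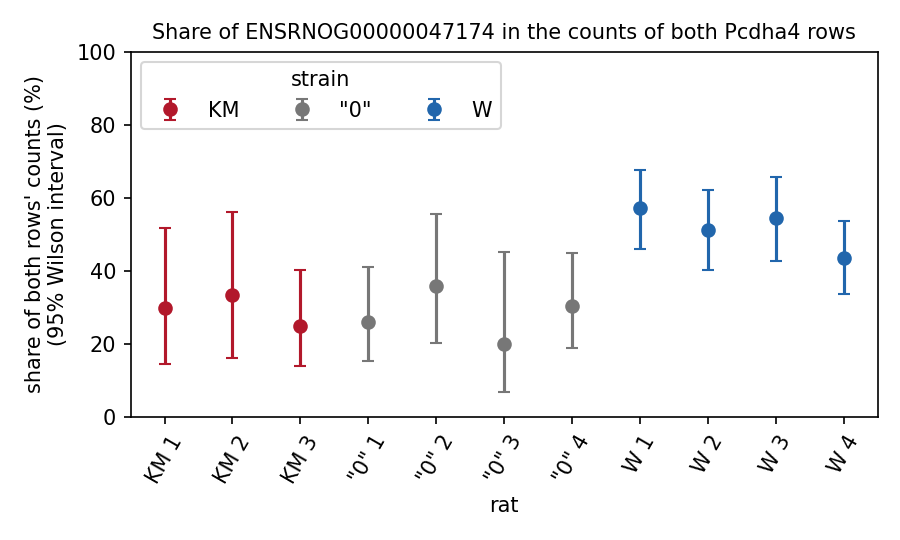
Share of identifier ENSRNOG00000047174 in the summed counts of both Pcdha4 rows (y axis, percent) in each rat (x axis), with 95% Wilson intervals as bars. The W rats lie between 43.5% and 57.1%, and the KM and “0” rats between 20.0% and 36.0%.

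Of the other clustered protocadherin genes, the table of symbols names Pcdhb4, Pcdhga4, Pcdhga10 and Pcdhgb6, all of which the study lists as DEGs, and the remaining members were not analysed here. With the second Pcdha4 row, 4 of these 5 genes were DEGs in KM vs W, 2 lower and 2 higher in KM rats, and because of how they were named this count cannot be read against the background of 5.33% of genes that were lower DEGs and 5.58% that were higher ones. In “0” vs W 4 of the 5 were DEGs, 2 lower and 2 higher in “0” rats, where 3.43% of all genes were lower and 3.26% higher DEGs. In KM vs “0” only Pcdhga4 passed and was lower in KM rats, where 1.29% of all genes were lower DEGs. In these 9 cases the strains also did not overlap, against 11.7% of genes in either direction in KM vs W, 4.38% in “0” vs W and 4.59% in KM vs “0”. At an adjusted p under 0.05 none of the 5 passed, since their lowest adjusted p was 0.32, and the share of all genes that passed was 0.0656% for KM vs W, 0.0146% for KM vs “0” and 0.11% for “0” vs W. Their changes did not share a direction, and in both comparisons with W each was smaller in size than that of Pcdha4.

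Pcdhga10, a gamma protocadherin of subfamily A, was ordered like Pcdha4, with W rats highest. It had 7.56, 6.62 and 8.74 CPM in KM, 9.00, 8.16, 8.92 and 8.97 CPM in “0”, and 10.9, 11.5, 10.2 and 15.6 CPM in W rats. Its log2FC was −0.65 (SE 0.20, adjusted p = 0.35) in KM vs W and −0.47 (SE 0.17, adjusted p = 0.63) in “0” vs W. In the opposite direction, Pcdhgb6, a gamma protocadherin of subfamily B, had 10.6, 9.34 and 10.4 CPM in KM and 8.92, 11.9, 12.3 and 10.5 CPM in “0” rats. The W rats had 3.50, 5.20, 6.55 and 8.74 CPM of it and lay below all the others. Its log2FC was 0.76 (SE 0.28, adjusted p = 0.42) in KM vs W and 0.86 (SE 0.27, adjusted p = 0.48) in “0” vs W.

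Pcdhga4 was highest in the “0” rats, from 8.70 to 9.29 CPM, against 5.18 to 7.06 CPM in KM and 5.82 to 8.27 CPM in W rats. Its log2FC was −0.54 (SE 0.20, adjusted p = 0.99) in KM vs “0” and 0.41 (SE 0.17, adjusted p = 0.70) in “0” vs W. Pcdhb4, whose promoter is shown above, had 3.20, 3.31 and 3.13 CPM in KM and 1.59, 2.76, 2.15 and 1.69 CPM in W rats, with 3.47, 3.23, 2.64 and 2.21 CPM in “0” rats, which overlapped both. Its log2FC in KM vs W was 0.64 (SE 0.27, unadjusted p = 0.0404), and the unadjusted p was 0.0734 with DESeq2.

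Several of these calls were lost when single rats were left out, while the log2FC kept its sign. The log2FC then ranged from 0.54 to 0.82 for Pcdhb4 and from 0.57 to 0.98 for Pcdhgb6 in KM vs W. For Pcdhga10 in “0” vs W the range was −0.54 to −0.32. For Pcdhga4 the range was −0.64 to −0.42 in KM vs “0” and 0.35 to 0.53 in “0” vs W. For Pcdhb4 in KM vs W the unadjusted p from edgeR rose above 0.05, to at most 0.105, without any 1 rat other than W 2. For Pcdhgb6 in KM vs W it rose to at most 0.0646 without any 1 KM rat or W 2. For Pcdhga10 in “0” vs W it rose to at most 0.0807 without “0” 2 or W 4. For Pcdhga4 it rose to at most 0.116 in KM vs “0” without KM 2 or KM 3, and to at most 0.101 in “0” vs W without any 1 rat other than “0” 3 or W 3.

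**Figure D3:**
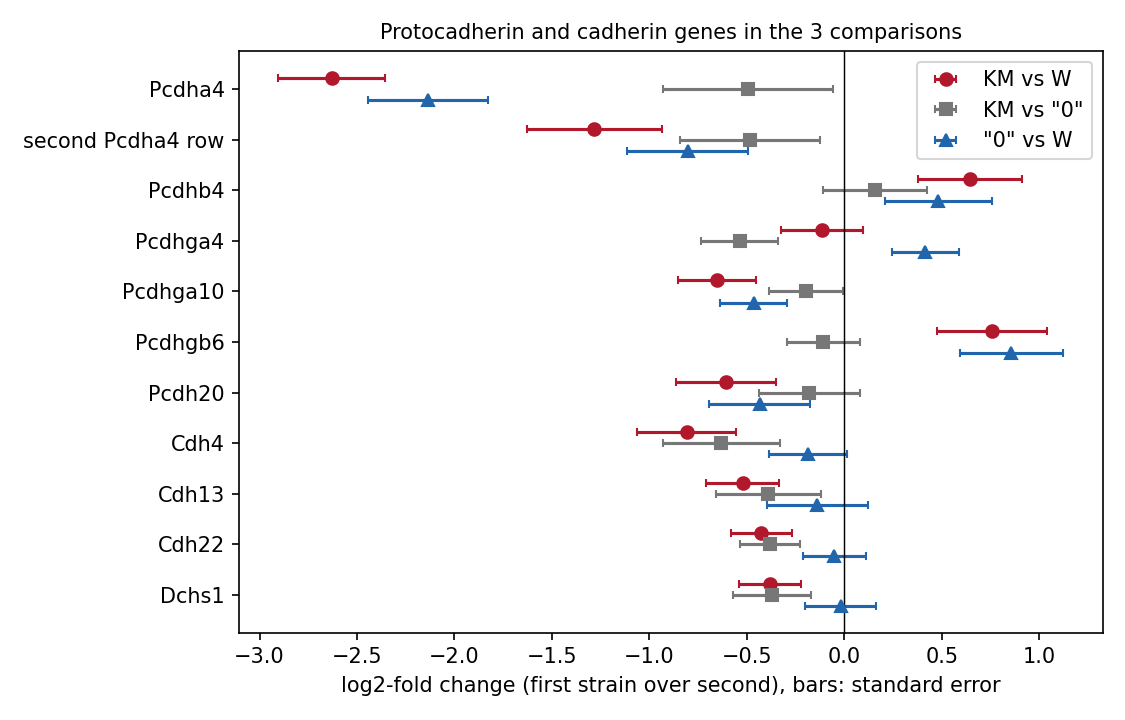
Fitted log2FC with its standard error (x axis) of Pcdha4, the second Pcdha4 row and the named protocadherin and cadherin genes (y axis) by symbol for KM vs W, for KM vs “0” and for “0” vs W. Pcdha4 lies at −2.63 in KM vs W and −2.14 in “0” vs W, and the other genes drawn lie between −1.28 and 0.86, with Cdh1 not drawn.

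Outside the clusters, Pcdh20, a protocadherin gene of its own locus, had a log2FC of −0.61 (SE 0.25, unadjusted p = 0.0426) in KM vs W. Of the cadherin and atypical cadherin genes listed, the table names Cdh1, Cdh4, Cdh13, Cdh22 and Dchs1. It also names the cadherin-related Cdhr1, which was not listed and is not in the counts below, and which is given after its values were seen, with a log2FC of −1.09 (SE 0.29) in KM vs W, −0.93 (SE 0.32) in KM vs “0” and −0.17 (SE 0.24) in “0” vs W. All 4 of these tested in KM vs W were DEGs and lower in KM rats, with a median log2FC of −0.47, against 5.33% of all genes that were DEGs and lower and a median of 0.01 over all genes. These genes were named because the study lists them as DEGs, so their number carries no weight. In KM vs “0” Cdh1 and Cdh22, 2 of the 5, were lower in KM rats, where 1.29% of all genes were lower DEGs, with log2FC values of −2.27 (SE 0.76) and −0.38 (SE 0.15). The KM and “0” rats overlapped for Cdh1, and its value ran from −3.14 without KM 3 to −1.56 without “0” 2. In “0” vs W none of the 5 listed cadherin genes had an unadjusted p under 0.05 in edgeR, against 6.69% of all genes. Pcdh20 lost its call without KM 1, KM 2, W 1, W 2 or W 4, Dchs1 without KM 2, KM 3, W 2 or W 3, Cdh13 without KM 1, and Cdh22 in KM vs W without KM 2 or KM 3 and in KM vs “0” without any KM rat or “0” 1, the highest of these p being 0.14.

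Of the named genes on either side of the protocadherin clusters, 2 of 3 were DEGs and higher in KM vs W, against 5.58% of all genes, and they have symbols because the study lists them as DEGs. In the RefSeq order of GRCr8, Zmat2 is next to the alpha cluster, Hars2 is 2 protein-coding genes away and Cd14 is 9 away, while Fchsd1 lies on the other side, beyond the gamma cluster. Of the 18 neighbours listed, the symbol table names Cd14, Hars2 and Fchsd1. Cd14, a receptor for bacterial lipopolysaccharide on myeloid cells, had 3.53, 4.59 and 6.91 CPM in KM, 5.45, 3.89, 6.17 and 5.26 CPM in “0” and 1.99, 2.07, 2.84 and 2.54 CPM in W rats. It was lowest in the W rats, with a log2FC of 1.09 (SE 0.29, adjusted p = 0.32) in KM vs W and 1.13 (SE 0.23, adjusted p = 0.16) in “0” vs W. Fchsd1, which codes for a membrane-curving protein that promotes actin assembly, had a log2FC of 0.53 (SE 0.17, unadjusted p = 0.0143) in KM vs W, a call lost without KM 2. For Hars2, the mitochondrial histidyl-tRNA synthetase, the value was 0.30 (SE 0.13, unadjusted p = 0.0514).

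Genes that act on these promoters or bind alpha protocadherin proteins were named in few cases. Of the 17 genes listed for promoter choice, Wapl and Pds5b have a symbol, both of which regulate the release of cohesin from chromatin. Wapl was 0.39 higher (SE 0.14, unadjusted p = 0.0217) and Pds5b 0.25 lower (log2FC −0.25, SE 0.11, unadjusted p = 0.048) in KM vs W on the log2 scale. Of the 16 genes listed as partners, only Adam10, a protease that sheds cadherin ectodomains, is named, with a log2FC of 0.48 (SE 0.15, unadjusted p = 0.0124) in KM vs W. In “0” vs W 0 of these 3 genes had an unadjusted p under 0.05 in edgeR, against 6.69% of all genes, and their part in the level of Pcdha4 was not tested. The unadjusted p from edgeR in KM vs W rose above 0.05 for Wapl without KM 2, KM 3, W 1 or W 3, for Pds5b without KM 1, KM 2, W 1, W 2 or W 3, and for Adam10 without KM 3, to at most 0.138. CTCF, the cohesin core and the WAVE subunits were not analysed here.

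The pattern of Pcdha4 was low in 7 rats and high in 4. The row was chosen for its level and passed the filter only through the W rats. Its place among all genes is therefore a description and carries no test. Every W rat was above every KM and “0” rat in 119 of 13694 genes with a mean of at least 1 CPM (0.869%), and for 2 of these, Pcdha4 included, the lowest W rat was at least 3.28 times the highest other rat. The genes most like Pcdha4 were found by the root mean square difference over the 11 rats between log2 CPM values, each gene centred on its own mean. A flat gene would be 1.09 away from Pcdha4 by this measure, and the median over 13693 genes was 1.13. Ccdc77, which codes for a coiled-coil protein, was nearest at 0.35, followed by the class I histocompatibility gene RT1-A2 at 0.50.

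Ccdc77 had 1.81, 1.44 and 1.53 CPM in KM, 1.58, 1.14, 0.771 and 1.49 CPM in “0” and 5.32, 7.81, 5.94 and 6.96 CPM in W rats. RT1-A2 had 3.78, 3.91 and 4.60 CPM in KM, 5.05, 4.84, 5.84 and 3.44 CPM in “0” and 24.5, 22.7, 28.6 and 14.6 CPM in W rats. In both genes the W rats stood apart from the rest and the KM and “0” rats overlapped, as in Pcdha4. Both were picked for their likeness to it over these rats, so this carries no weight. The remaining named genes among the nearest 10 were Asgr2, RGD1309730, Ahsp, Avil, Epb42, Cxcl16, Slc4a1 and Rhd, at differences from 0.53 to 0.63. Another 2 identifiers without a symbol were nearer than the last of them.

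**Figure D4:**
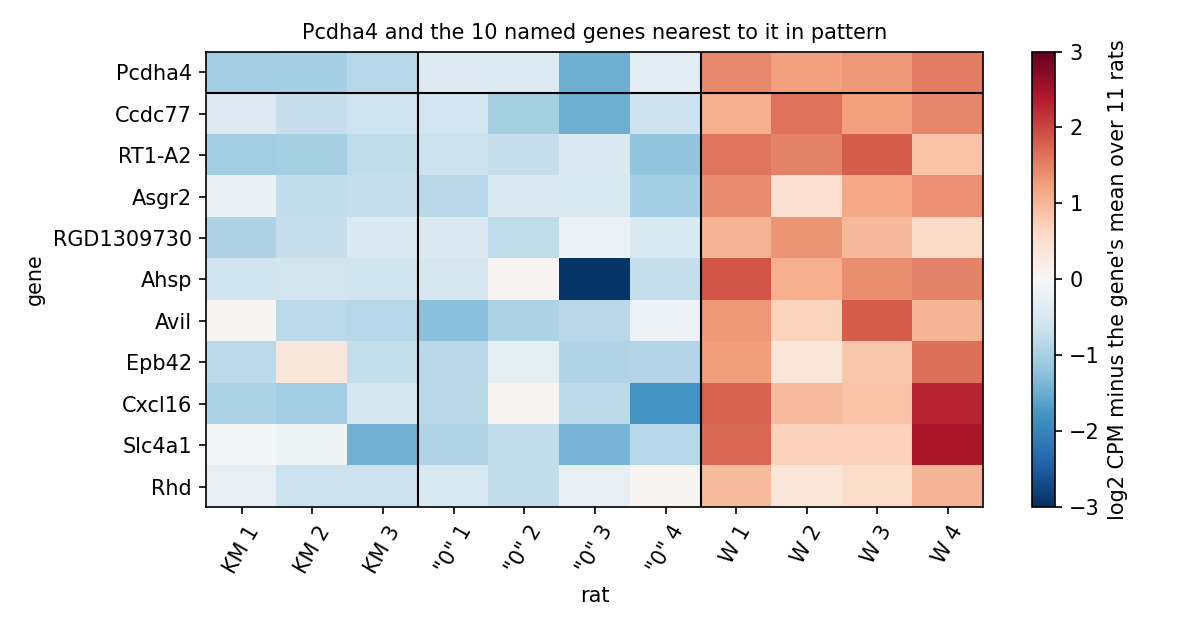
Log2 CPM minus the gene's mean over the 11 rats (colour) for Pcdha4 (top row) and the 10 named genes nearest to it in pattern (rows), by rat (columns, with lines between the strains). All 11 genes are above their mean in the 4 W rats, and Pcdha4 ranges from −1.46 in “0” 3 to 1.54 in W 4. The 10 genes were picked for this likeness.

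Of these nearest genes only Ahsp, which stabilises alpha globin, was in the list of erythrocyte genes. Epb42 and Slc4a1, parts of the red cell membrane, and Rhd, a blood group protein, were not in that list. They are mentioned after the nearest genes were seen, so their number carries no weight. Of the 5 symbols listed for erythrocytes, 3 are named, and they cover 4 identifiers, of which Hba-a2 (alpha globin) was the most abundant. Their summed level was 1385 to 2678 CPM in KM, 1111 to 1704 CPM in “0” and 2501 to 6576 CPM in W rats, and Ahsp had 0 counts in “0” 3. They have symbols because the study lists them as DEGs, so their counts carry no weight. In “0” vs W all 4 were DEGs and lower in “0” rats, against 3.43% of all genes. In KM vs W 2 were lower in KM rats, against 5.33% of all genes, and 2 did not pass. In KM vs “0” all 3 tested were DEGs and higher in KM rats, against 2.37% of all genes, but each call was lost without single rats. The unadjusted p from edgeR rose to at most 0.178 for Hba-a2 ENSRNOG00000047321 without KM 1, KM 2, “0” 2, “0” 3 or “0” 4, to at most 0.147 for Hba-a2 ENSRNOG00000029886 without KM 1, KM 2, “0” 2 or “0” 3, and to at most 0.0752 for Alas2 without KM 1 or KM 2. These genes moved in part with the strains, and the part of erythrocyte RNA in the level of Pcdha4 was not tested. W 3, with the lowest erythrocyte sum of the W rats, had 3.19 CPM of Pcdha4, and KM 2, whose sum was higher than that of W 3, had 0.510 CPM. Hba-a2 led this sum. The red cell genes nearest to Pcdha4 were higher in W 3 than in KM 2. They were picked for a pattern like that of Pcdha4 over these same rats, so this carries no weight. Ahsp had 3.10 CPM in W 3 and 0.679 CPM in KM 2, and Epb42 had 1.81 and 1.27 CPM. Slc4a1 had 12.7 and 7.05 CPM, and Rhd had 5.08 and 2.12 CPM.

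The 6 choroid plexus genes listed, led by Ttr in KM 3 and by Enpp2 in the remaining rats, summed to 8018 CPM in KM 3 and to 155 to 288 CPM in the other rats, while KM 3 had 0.590 CPM of Pcdha4, near the other KM rats. Of the 6, 5 were DEGs and higher in KM rats in KM vs W, against 5.58% of all genes, and 6 in KM vs “0”, against 2.37%. Only Ttr was a DEG in “0” vs W, lower in “0” rats, against 3.43%. These genes too have symbols because the study lists them as DEGs. Without KM 3 the calls of Ttr, Clic6 and Enpp2 in KM vs W and of Clic6, Enpp2 and Folr1 in KM vs “0” were lost, but those of Kl and Kcne2 were not. Kl had 2.79, 3.14 and 129.8 CPM in KM rats and at most 2.33 CPM in any other rat. Kcne2 had 3.37, 3.14 and 32.4 CPM in KM rats and at most 1.99 CPM in any other rat. Both were thus higher in every KM rat than in every “0” and W rat, and their log2FC in KM vs W fell from 4.89 to 0.97 for Kl and from 2.96 to 0.97 for Kcne2 without KM 3. Without KM 3 the log2FC of Pcdha4 in KM vs W was −2.71. The 2 of 4 astrocyte genes that are named, Gfap and Aldh1l1, summed to 1362 to 2170 CPM in KM, 1342 to 2408 CPM in “0” and 1045 to 1427 CPM in W rats. Gfap, their most abundant gene, had a log2FC of 0.62 (SE 0.19, unadjusted p = 0.0112) in KM vs W, and Aldh1l1 one of −0.46 (SE 0.12, unadjusted p = 0.0041). In “0” vs W the log2FC of Gfap was 0.68 (SE 0.19, unadjusted p = 0.00542), a call that leaving out any 1 rat did not end, although the strains overlapped, and that of Aldh1l1 was 0.02 (SE 0.15). In KM vs “0” the log2FC of Aldh1l1 was −0.48 (SE 0.18, unadjusted p = 0.0236), a call lost without KM 1, KM 2, “0” 3 or “0” 4, and that of Gfap was −0.06 (SE 0.24). Flt1, the only endothelial gene named of 3, had a log2FC of 0.36 (SE 0.12, adjusted p = 0.38 in edgeR) in KM vs W, a call that was lost without KM 2. In “0” vs W its log2FC was 0.34 (SE 0.12, adjusted p = 0.61 in edgeR), a call that was lost without W 2. Every W rat had less Flt1 than every KM and “0” rat, so this gene, in the opposite direction, set W rats apart as Pcdha4 did. The part of these cells in the level of Pcdha4 was not tested.

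Of 7 genes listed for the colliculi and midbrain only Pou4f1, a transcription factor of superior colliculus neurons, is named, and it ranged from 0.0821 CPM (1 count) in KM 1 to 2.76 CPM in W 2. It was a DEG in KM vs W, with a log2FC of −1.78 (SE 0.76, unadjusted p = 0.0466) that was lost at p of at most 0.131 in edgeR without KM 1, KM 2, W 1 or W 3. Without W 2 it did not pass the filter and was not tested, and without KM 3 its log2FC was −3.73. The labelled tissue was checked by no other gene. The listed genes of neurons in general, of serotonin and dopamine neurons, of microglia and of forebrain and cerebellum have no symbol in the table and were not analysed here. In this bulk tissue, fewer neurons that use a given protocadherin promoter and less of its RNA per neuron cannot be told apart.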

How the data were processed

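According to the methods of the study, the authors trimmed the reads with Trimmomatic, aligned them by STAR against Rnor_6.0 and obtained gene counts from HTSeq-count. Versions, strand setting and annotation release are not given in the sources used here. The deposited counts are whole reads per gene without normalization. The rows of read totals, which carry names used by another counting tool, were left out, and reads on no gene made up 16.5% to 22.7% of those totals.

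Strains were compared in pairs, each fit holding the rats of that pair alone, with R 4.3.3 and edgeR 4.0.16 (TMM factors, quasi-likelihood F-test in its original form, genes with a mean of at least 1 CPM, Benjamini-Hochberg adjustment over all genes tested). DEGs had an unadjusted p under 0.05, as in the study. The SE of each log2FC, that of Pcdha4 included, is its absolute value over the square root of the F statistic. CPM values used TMM factors over all 11 rats, and log2 CPM a prior count of 2. Exact permutation tests were two-sided. On simulated counts for KM vs W with 200 of 13721 genes changed 4-fold, 98.5% of the changed and 4.54% of the unchanged genes were called. Symbols were taken from the supplementary table of DEGs of the study, which names 1763 of the identifiers, and promoters from RefSeq (GRCr8), where Pcdha4, Pcdhb4, Pcdhga4 and Pcdhga10 matched by symbol.

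The gene and all lists were chosen with earlier results of these data known. Text names Pcdha4, the other alpha row, listed genes with an unadjusted p under 0.05 in any comparison or the highest level of their list, and the 10 named genes nearest in pattern. Alternatives were DESeq2 1.42.0 (size factors and Wald test), the newer quasi-likelihood form, a block for the replicate number, filterByExpr, a fit with every rat at once, a prior count of 0.5, no filter, other thresholds and leaving out each rat. Replicates of a strain differed beyond sampling noise (their chi-square ranged from 18.6 to 211 per degree of freedom). The samples are numbered rats, and p-values measure the spread between them. Poisson and Wilson intervals at the 95% level cover counting error only.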

Additional observations from a re-analysis of the deposited data

Results flagged for a closer look

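In a strain of 4 rats, a rat was singled out where its gap to the nearest other rat made up more of the range than Dixon's test at the 95% level allows. This held in 7 of the 84 groups of 4 examined, and chance gives about 1 in 20. For Pcdha4 it was “0” 3, with 0.330 CPM against 0.854 to 0.910 CPM in the other “0” rats. That value rests on 3 counts, and its 95% Poisson interval, from 0.0681 to 0.965 CPM, includes the other “0” rats. For the second Pcdha4 row (ENSRNOG00000050378) it was W 4, with 4.89 CPM against 2.62 to 2.83 CPM. For Pcdhga10 it was “0” 2, with 8.16 CPM against 8.92 to 9.00 CPM.

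Among the cadherin genes W 4 was high for Cdh1, with 3.10 CPM against 0.556 to 0.689 CPM, and for Cdh22, with 76.2 CPM against 52.1 to 54.8 CPM. Of the remaining genes, Epb42 had 0.759 CPM in “0” 2 against 0.440 to 0.474 CPM, and Ttr had 44.5 CPM in W 3 against 2.38 to 5.66 CPM.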

How the results depend on the processing

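The log2FC of Pcdha4 kept its sign under all alternatives. It lay from −2.65 to −2.58 in KM vs W, from −2.19 to −2.13 in “0” vs W and from −0.51 to −0.32 in KM vs “0”, and without single rats from −2.71 to −2.58, −2.23 to −1.92 and −0.72 to −0.38. The KM vs W difference of its mean log2 CPM was −2.34, and −2.57 with a prior count of 0.5. The 1497 DEGs of KM vs W became 394 at an unadjusted p under 0.01, 9 at an adjusted p under 0.05 and 954 to 1831 without single rats, the lowest without W 1. The 500 DEGs of KM vs “0” became 108 and 2 at these thresholds, 777 without a filter and 280 (without “0” 3) to 921 (without KM 3), with 295 without KM 1. The 912 DEGs of “0” vs W became 270 and 15. Without single rats, DEGs among the 5 other clustered protocadherin genes numbered 2 to 3 for KM vs W, 0 to 1 for KM vs “0” and 1 to 4 for “0” vs W. The difference between “0” and W rats of the second Pcdha4 row ranged from −1.62 to −0.87 CPM, with an exact p of 0.0571 each time, the smallest that 3 rats against 4 allow. For Folr1, a choroid plexus gene, the log2FC in KM vs “0” ranged from −0.60 (without KM 3) to 2.67. The causes of these changes were not tested.

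The labels do not say what the replicate numbers stand for. Correlations between the deviations of same-numbered rats ran from −0.183 to 0.19 for KM vs W (mean −0.0482). They ran from 0.0585 to 0.236 for KM vs “0” (mean 0.12) and from −0.579 to 0.513 for “0” vs W (mean 0.00844). The means for rats of unlike number were 0.0122, −0.0398 and −0.00446. Whether the numbers mark a pairing was not tested. With the replicate number as a block the log2FC of Pcdha4 was −2.58, −0.32 and −2.19 in the same order. The block left 2 of the 5 other clustered genes as DEGs for KM vs W, 0 for KM vs “0” and 3 for “0” vs W (edgeR), and gave 780 DEGs for KM vs “0”. In KM vs W it ended the calls of Pcdhb4 and of Pcdhga10, whose log2FC was −0.52 at an unadjusted edgeR p of 0.0538. The call of Pcdhga4 in “0” vs W ended with the block, at an unadjusted edgeR p of 0.0625, and without a filter, at 0.0531.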
